A study of Mus musculus with 477 samples.

Results

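The genes described here act from the G2 phase through mitosis to the separation of the daughter cells, together with *Mki67* and *Top2a*, which mark dividing cells more broadly. They are 47 rows, chosen by gene symbol from knowledge of the mitotic machinery, of the 21004 gene rows of a table of read counts from single mammary cells. The question asked of them was whether mice differed in their RNA because more cells carried it, or because the cells that carried it held more.

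Capture used Fluidigm C1 chips, which trap single cells in separate chambers where each cell's cDNA is made. The table held 477 cells, 312 luminal cells from 7 mice and 165 tumor cells from 4 mice, in 10 groups. All were female mice on a mixed C57BL/6 and 129/Sv background in which MMTV-Cre, a recombinase driven by a mammary tumor virus promoter, deletes floxed alleles in mammary cells. Luminal cells, the inner layer of the ducts and alveoli, were sorted as DAPI-, CD24 high, CD29 low and positive for membrane GFP, which a ROSA mT/mG reporter turns on in cells that have had Cre, and tumor cells as DAPI- and CD24+, in both cases after removal of blood and endothelial cells.

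Br mice carried *Brca1* fl/fl, 53 mice *Trp53* fl/+, and Br53 mice both, so that every luminal group carried at least 1 mutant allele and none was wild type for both genes. The prefix v marks virgin mice and p mice at day 12.5 of pregnancy, both 3 to 4 months old; L stands for luminal and T for tumor. The virgin mice were vBrL (35 cells), vBr53L (39) and v53L (40), and the pregnant mice pBrL-1 (71), pBrL-2 (38), pBr53L (53) and p53L (36). The tumors were BrT1 (47), BrT2 (37), Br53T1 (30) and Br53T2 (51), all from *Brca1*-deficient mice whose ages the labels do not give. Each group was 1 mouse, except pBrL with 2.

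As background, a cell that has copied its DNA enters mitosis when Cdk1, bound to cyclin A or B, becomes active. The nuclear membrane then breaks down, condensin compacts the chromosomes, kinetochores attach them to the spindle, and the spindle checkpoint holds the anaphase-promoting complex until every chromosome is attached. RNA of most of these genes is made late in the cycle under the MuvB complexes (DREAM, B-Myb and FoxM1) and falls again in G1, so it is low in resting cells. In the mammary gland, luminal cells divide in pregnancy as the alveoli grow, which is why the stage of the mouse matters here.

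The promoters show what many of these genes share in sequence. RefSeq promoter entries (GRCm38.p6, 250 bases before to 50 after the start) were found for 40 of the 47 genes. The cell cycle genes homology region (CHR, an element through which MuvB complexes act, searched as TTTGAA or TTCGAA on both strands) was present in 31 of them (77.5%), against 21.7% of all 27025 genes with an entry. CCAAT, searched on both strands, was present in 32 (80%) against 41.1%, and at least 2 copies of it in 22 (55%) against 13.3%. Both motifs were present in 28 (70%) against 8.61%. The 2 motifs can share at most 1 base. By the same search 5 of 23 replication genes (21.7%) and 25 of 36 other mitosis genes (69.4%) held a CHR match, and 15 (65.2%) and 23 (63.9%) a CCAAT match, with no test of these differences. A match is a description of letters, not a shown binding site. All 47 members matched the GENCODE annotation of GRCm38, for instance *Mki67* at chr7:135689784-135716361, *Top2a* at chr11:98992943-99024189, *Cdk1* at chr10:69335146-69352938, *Ccnb1* at chr13:100778650-100786570, *Aurka* at chr2:172356190-172370535, *Anln* at chr9:22332012-22389188, *Bub3* at chr7:131560222-131571895 and *Ndc80* at chr17:71496100-71526857. Exons of 15 members overlap those of another gene (*Cdc20* those of *Elovl1* on the other strand), and whether counting used the strand is not given in the sources used here.

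Shown are the 150 bases before the RefSeq start of 7 members. Of these, 3 were used to call cells positive (*Cdk1*, *Mki67*, *Top2a*) and 4 belong to a second set for such calls (*Ccnb1*, *Ccnb2*, *Cdc20*, *Ube2c*). Sequences are from RefSeq, GRCm38.p6, written 5′ to 3′ on the strand of the gene, with matches to both motifs in capitals, CHR also reading TTCAAA and CCAAT reading ATTGG where it lies on the other strand. They lie at chr10:69352913-69353062 (minus strand), chr7:135716380-135716529 (minus), chr11:99024190-99024339 (minus), chr13:100786487-100786636 (minus), chr9:70421555-70421704 (minus), chr4:118437344-118437493 (minus) and chr2:164769779-164769928 (plus). GENCODE places the start of some of these genes further upstream, so that 84 of the shown bases of *Ccnb1*, 31 of *Ube2c*, 26 of *Cdk1* and 9 of *Cdc20* lie inside the gene as annotated there.
Cdk1: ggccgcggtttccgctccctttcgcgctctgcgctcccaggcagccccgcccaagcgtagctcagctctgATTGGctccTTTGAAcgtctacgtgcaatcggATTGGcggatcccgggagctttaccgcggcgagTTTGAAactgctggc
Mki67: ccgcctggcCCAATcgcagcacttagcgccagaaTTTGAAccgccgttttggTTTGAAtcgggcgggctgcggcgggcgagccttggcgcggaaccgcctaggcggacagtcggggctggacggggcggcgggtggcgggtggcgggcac
Top2a: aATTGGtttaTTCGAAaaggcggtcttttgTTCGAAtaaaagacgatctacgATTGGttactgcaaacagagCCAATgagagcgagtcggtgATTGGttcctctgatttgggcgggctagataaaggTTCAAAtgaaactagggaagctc
Ccnb1: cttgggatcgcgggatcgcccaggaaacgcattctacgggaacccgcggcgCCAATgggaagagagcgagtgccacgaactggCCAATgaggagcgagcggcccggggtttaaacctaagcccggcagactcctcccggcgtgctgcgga
Ccnb2: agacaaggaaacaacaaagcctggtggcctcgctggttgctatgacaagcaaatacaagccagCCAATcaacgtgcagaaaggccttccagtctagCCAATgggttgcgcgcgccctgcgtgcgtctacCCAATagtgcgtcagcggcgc
Cdc20: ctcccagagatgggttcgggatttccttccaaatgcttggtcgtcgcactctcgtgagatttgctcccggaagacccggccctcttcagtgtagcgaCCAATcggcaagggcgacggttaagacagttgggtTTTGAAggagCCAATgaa
Ube2c: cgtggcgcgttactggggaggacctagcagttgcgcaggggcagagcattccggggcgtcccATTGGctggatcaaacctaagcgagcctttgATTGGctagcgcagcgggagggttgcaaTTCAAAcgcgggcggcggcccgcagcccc
*Cdk1* and *Mki67* held 2 CHR matches each in these bases, *Top2a* 3, and *Cdc20* and *Ube2c* 1 each. *Ccnb1* and *Ccnb2* held none in the shown bases, and 2 and 3 CCAAT matches. *Ccnb2* did hold CHR matches in the wider window searched, at bases -167 to -162 and 5 to 10 from the start.

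*Brca1* was read at 1.70 to 57.2 CPM in the mice with *Brca1* fl/fl and 6.99 (v53L) and 5.21 (p53L) in those without, and *Trp53* at 67.2 to 243 CPM in mice with *Trp53* fl/+ and 5.05 to 515 in those without. These are counts over the whole gene, not over the floxed part, so they do not check the deletion. Total counts were 40338926 to 115827852 reads per mouse, lowest in v53L, and 170209 to 3550564 reads per cell. Luminal markers (*Krt8*, *Krt18*, *Krt19*, *Epcam*, *Cdh1*, *Cldn4*) summed to 7313 to 13003 CPM (counts summed over the cells of a mouse and scaled to a common total of 1e6) in the luminal mice and 4165 to 6649.9 in BrT2, Br53T1 and Br53T2. BrT1 stood apart with 512 CPM, with *Krt19* and *Cdh1* at 0 reads and *Cldn4* at 0.0110 CPM, and with 4955 CPM of 6 fibroblast markers, of which *Dcn* made 4356 while *Lum* had no read in any mouse. The summed fibroblast markers were 0.117 to 712 CPM in the luminal mice and 0.140 to 96.5 in the other tumors. Br53T2 held 5335 CPM of 6 basal markers against 0 to 375 in the other mice. The cells came from 8 chips: tumor and luminal cells shared a chip on SC6 alone (Br53T2 and pBrL-2), and only SC7 (vBr53L, pBr53L) and SC9 (v53L, p53L) held both stages, so that for the other mice chip and group cannot be told apart.

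The summed level of the 47 genes varied 23.3-fold between mice. It was 2540.1 CPM (vBrL), 1666 (vBr53L) and 332 (v53L). Among the pregnant mice it was 2749 CPM in pBrL-1, 4154 in pBrL-2, 2929 in pBr53L and 1603 in p53L. The tumors held 7755 CPM (BrT1), 1178 (BrT2), 908 (Br53T1) and 3168 (Br53T2). One tumor was thus the highest mouse of all and another among the lowest, and the tumors bracketed all luminal mice but v53L. Of the 47 genes, 37 were highest in BrT1 and 38 lowest in v53L, where 20 had no read. In such sums, fewer cells carrying an RNA and less of it per cell cannot be told apart, which is why single cells were examined next to them.

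On log2(CPM + 1), the tumors averaged 11.15 ± 1.42 (SD, n = 4) and the luminal mice 10.86 ± 1.19 (n = 7), a difference within the spread of either. It turned from positive to -0.30 without BrT1 and to -0.13 without v53L. The pregnant mice averaged 11.40 ± 0.57 (n = 4) and the virgin mice 10.13 ± 1.55 (n = 3), and without v53L the difference between them was 0.40.

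**Figure D1:**
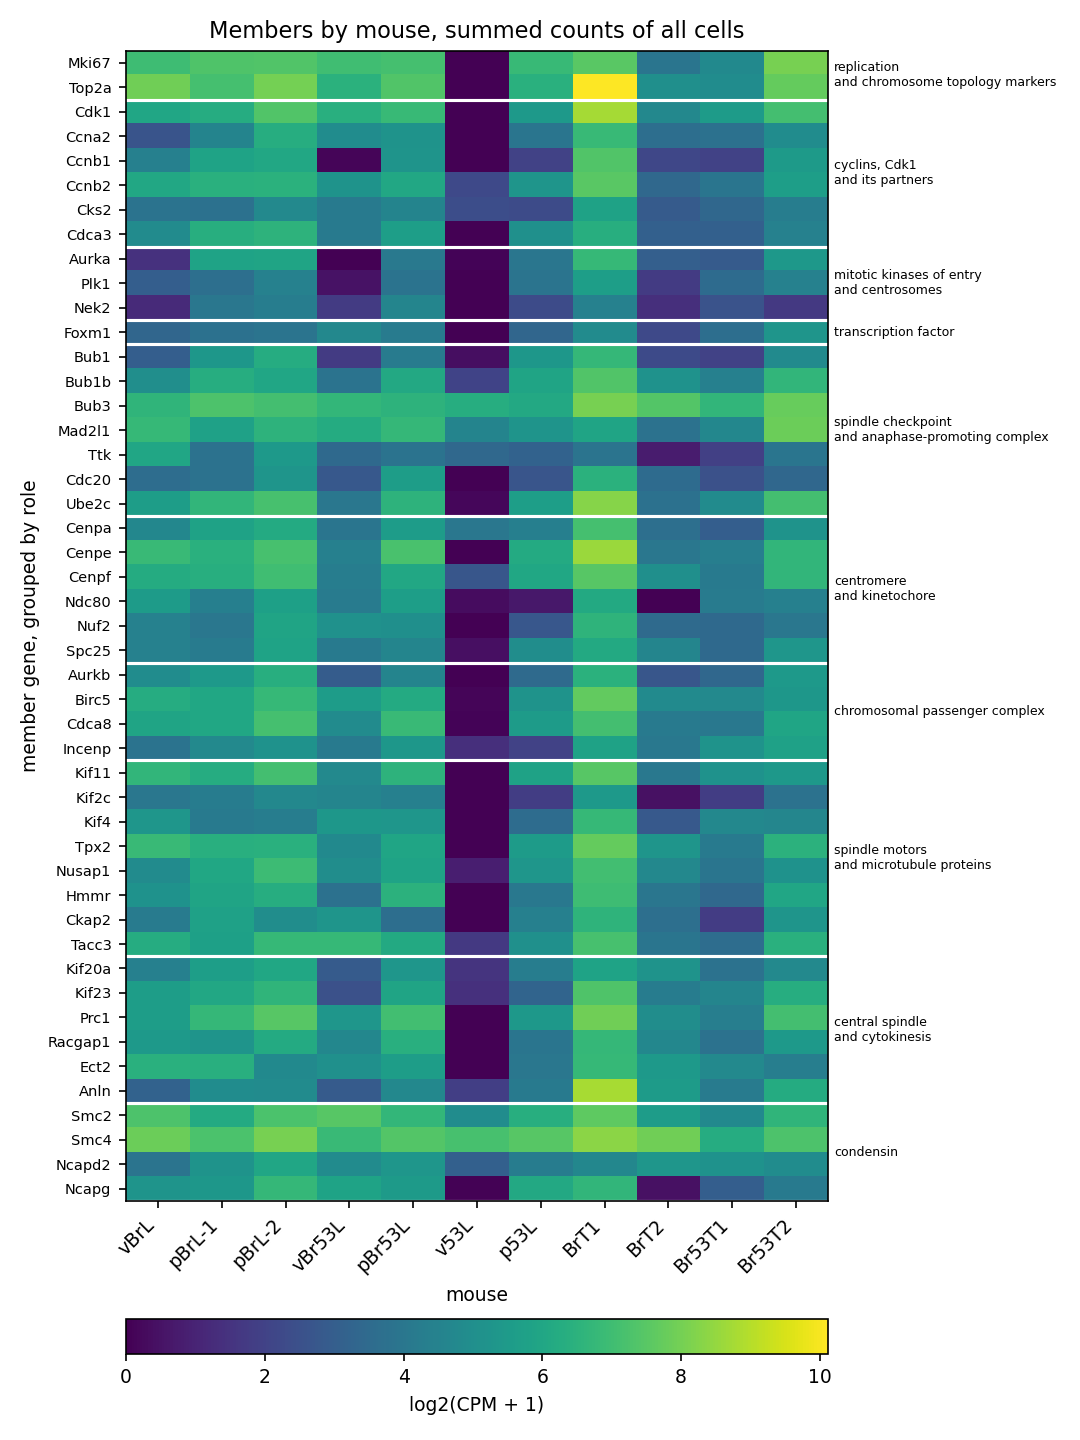
Each row is 1 of the 47 genes, grouped by role, and each column 1 of 11 mice; color gives log2(CPM + 1) of the counts summed over all cells of the mouse. The v53L column is dark in most rows except *Bub3*, *Smc4* and a few others, and the BrT1 column is the brightest in 37 rows.

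*Mki67*, the Ki-67 protein that coats mitotic chromosomes, was read at similar levels in 6 of the 7 luminal mice. It stood at 126 CPM in vBrL, 128 in vBr53L, 162 in pBrL-1, 164 in pBrL-2, 138 in pBr53L and 111 in p53L. In v53L a single read gave 0.0248 CPM. Among the tumors it was 183 CPM (BrT1), 14.1 (BrT2), 26.8 (Br53T1) and 262 (Br53T2), so that a pair of tumors lay above the luminal mice and a pair below all of them but v53L. *Top2a*, the topoisomerase that untangles sister chromatids, was 244, 86.96 and 0 CPM in vBrL, vBr53L and v53L. It was 141, 256, 164 and 85.3 CPM in pBrL-1, pBrL-2, pBr53L and p53L. In BrT1 it reached 1109 CPM, against 31.4 (BrT2), 29.4 (Br53T1) and 209 (Br53T2). BrT1 therefore stood far above the other tumors in *Top2a* but not in *Mki67*.

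*Cdk1*, the kinase that drives entry into mitosis, was again highest in BrT1 and without a read in v53L. It was 62.2 CPM (vBrL), 81.98 (vBr53L) and 0 (v53L), and 75.7, 165, 113 and 41.8 in pBrL-1, pBrL-2, pBr53L and p53L. The tumors held 432 CPM (BrT1), 25.1 (BrT2), 45.7 (Br53T1) and 137 (Br53T2). *Ccnb1*, cyclin B1, its main partner in mitosis, showed wider gaps, with 19.95 CPM in vBrL, 0.103 in vBr53L (7 reads) and 0 in v53L. In the pregnant mice it was 57.8 (pBrL-1), 65.1 (pBrL-2), 36.9 (pBr53L) and 2.99 (p53L), and in the tumors 166 (BrT1), 3.51 (BrT2), 2.95 (Br53T1) and 44.3 (Br53T2). vBr53L thus had *Cdk1* at the level of the other luminal mice but almost no *Ccnb1*. Matches of 95% or more over at least 200 bases to other annotated genes were found for 4 members, *Ccnb1* (4 copies), *Cks2* (3), *Mad2l1* (1) and *Mki67* (1), the longest in each case to a processed pseudogene, so their reads may be split between copies. *Ccnb2*, cyclin B2, had the highest level of all members per length, 37.96 CPM per kb of exon, ahead of the condensin gene *Smc4* (35.7), and *Nek2* the lowest (1.90).

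Of the kinases of mitotic entry, *Aurka*, which matures the centrosomes, was at or near the floor in the virgin mice. It was 1.73 CPM (vBrL), 0 (vBr53L) and 0.0744 (v53L, 3 reads), against 57.5 (pBrL-1), 59.6 (pBrL-2), 16.1 (pBr53L) and 14.6 (p53L) in pregnancy. All 4 pregnant mice lay above all 3 virgin mice. The tumors held 109.7 (BrT1), 7.45 (BrT2), 6.50 (Br53T1) and 41.4 CPM (Br53T2). *Plk1*, polo-like kinase, was 7.17 CPM (vBrL), 0.397 (vBr53L) and 0 (v53L), against 11.9 (pBrL-1), 21.03 (pBrL-2), 13.6 (pBr53L) and 14.03 (p53L), and 49.5, 2.36, 10.7 and 20.6 in BrT1, BrT2, Br53T1 and Br53T2. *Nek2*, which separates the centrosomes, was 1.31, 2.40 and 0 CPM in vBrL, vBr53L and v53L, against 15.01 (pBrL-1), 18.8 (pBrL-2), 23.4 (pBr53L) and 3.95 (p53L), and its tumor values were 20.7 (BrT1), 1.58 (BrT2), 5.03 (Br53T1) and 2.21 CPM (Br53T2). All 3 are among the 5 members with the largest fold change between the stages, so their choice depended on it. These 3 kinases separated the stages in every mouse, as did 6.11% of all genes tested with pregnant mice higher. *Foxm1*, a transcription factor for G2/M genes, did not: it was 9.10, 25.1 and 0 CPM in the virgin mice, 12.6 (pBrL-1), 14.02 (pBrL-2), 17.4 (pBr53L) and 9.10 (p53L) in the pregnant mice, and 28.2, 3.69, 11.7 and 37.8 in BrT1, BrT2, Br53T1 and Br53T2.

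The checkpoint genes fell into different patterns. *Bub3*, a checkpoint protein that also acts outside mitosis, was read in every mouse, at 67.3 CPM at the lowest (p53L), 96.7 at the median and 157 at the highest (pBrL-1) of the luminal mice, v53L included (77.9). Its tumor values were 263 (BrT1), 169 (BrT2), 100.3 (Br53T1) and 214 CPM (Br53T2). *Bub1*, a kinase of the same checkpoint, ranged from 0.297 CPM in v53L over a median of 17.6 to 75.6 in pBrL-2, and was 105.1, 3.87, 3.02 and 27.3 CPM in the tumors, in the same order. *Bub1* thus fell close to 0 in some mice, while *Bub3* was at 67.3 CPM or more in all of them. *Ttk*, the kinase Mps1, was highest in vBrL (61.7 CPM), with 8.18 to 43.4 in the other luminal mice, and 13.9, 0.721, 2.81 and 14.3 in BrT1, BrT2, Br53T1 and Br53T2. *Cdc20*, the activator of the anaphase-promoting complex, was 86.8 CPM in BrT1 and 10.6, 4.66 and 9.36 in BrT2, Br53T1 and Br53T2, with luminal values from 0 in v53L over a median of 11.4 to 48.7 in pBr53L. BrT1 was the tumor that stood apart.

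Among the kinetochore genes, *Cenpe*, a motor that aligns chromosomes, ranged from 0 CPM in v53L over a median of 83.7 to 149 in pBr53L, and was 383 (BrT1), 15.1 (BrT2), 18.8 (Br53T1) and 98.8 (Br53T2) in the tumors. *Ndc80* and *Nuf2* encode partners in the complex that binds microtubules, yet their values differed in single mice. *Ndc80* was 0.273 CPM in v53L and 0.589 in p53L, against 17.4 to 53.5 in the 5 *Brca1*-deficient luminal mice, and 68.99, 0.0200, 17.6 and 20.3 in BrT1, BrT2, Br53T1 and Br53T2. *Nuf2* was 0 CPM in v53L, 5.65 in p53L, 15.3 to 58.4 in the *Brca1*-deficient luminal mice, and 94.2, 10.3, 9.86 and 15.1 in the tumors. In BrT2 *Ndc80* was close to 0 (1 read) while *Nuf2* was not. *Birc5*, survivin, of the chromosomal passenger complex, ranged from 0.0992 CPM in v53L over 63.6 to 107.9 in pBrL-2, and was 204, 27.4, 26.5 and 39.4 in the tumors.

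Of the genes of the spindle, cytokinesis and condensin described next, each was again highest in BrT1. *Tpx2*, which activates Aurora A on the spindle, was 0 CPM in v53L, 61.2 at the median and 116 in vBrL, and 211, 37.5, 16.4 and 89.2 in BrT1, BrT2, Br53T1 and Br53T2. *Prc1*, which bundles the central spindle, was 0.0248 CPM in v53L, 48.4 at the median and 179 in pBrL-2, and 242, 29.95, 18.9 and 134 in the tumors. *Anln*, anillin, a scaffold of the contractile ring, departed from this pattern: luminal mice held 2.68 to 29.4 CPM with a median of 17.2, and the tumors 447 (BrT1), 46.3 (BrT2), 17.5 (Br53T1) and 74.8 (Br53T2). In 3 of the 4 tumors it was above every luminal mouse. The condensin gene *Smc4* varied less, with 116 CPM at the lowest, 170.4 at the median and 259 at the highest luminal mouse, 142 in v53L, and 329, 239, 76.1 and 154 in the tumors.

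Apart from *Kif2c*, *Cdca3* and *Ncapg*, which are described with the tests, the remaining members had mean levels over the 11 mice between 17.2 CPM (*Cks2*) and 103.03 CPM (*Smc2*). Among them, *Ube2c*, the ubiquitin-conjugating enzyme of the anaphase-promoting complex, ranged from 0.124 CPM in v53L to 309.7 in BrT1, *Kif11*, the motor that keeps the spindle poles apart, from 0 to 177, and *Cenpf*, a kinetochore protein, from 5.58 to 181. *Ccna2*, *Aurkb*, *Kif4*, *Hmmr*, *Ckap2*, *Racgap1* and *Ect2* also had no read in v53L and were highest in BrT1, and *Ccnb2*, *Bub1b*, *Spc25*, *Incenp*, *Nusap1*, *Tacc3* and *Kif23* were lowest and highest in the same mice. Among these members the exceptions at the high end were *Mad2l1* (highest in Br53T2, 231 CPM), *Cdca8*, *Kif20a* and *Ncapd2* (pBrL-2, 139, 64.2 and 62.1 CPM). *Cks2* was lowest in p53L, *Mad2l1* in BrT2, and *Cenpa* and *Smc2* in Br53T1.

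To separate the number of cells from their content, each cell was thinned to 100000 reads and called positive when at least 3 of 8 genes (*Mki67*, *Top2a*, *Cdk1*, *Ccna2*, *Birc5*, *Tpx2*, *Nusap1*, *Prc1*) had a read. The other 39 members were then measured in positive and other cells. Positive is a range of this count and not a cell type, and a cell with little of these RNAs is less often called, so share and level are not independent. Of 477 cells 153 were positive, 83 luminal and 70 tumor cells. The count had 2 ends: 275 cells had a read of 0 or 1 of the 8 genes and 81 of 7 or 8, while 78 lay at 2 or 3, next to the threshold. A second set of 8 members (*Ccnb1*, *Ccnb2*, *Cdc20*, *Plk1*, *Aurka*, *Cenpf*, *Kif11*, *Ube2c*) called fewer cells, nearly all of them called by the first as well, so that 157 cells were called by either set.

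Mice differed widely in the share of positive cells. In v53L none of 40 cells was positive, which allows a share of up to 7.50% by a floor of 3 counts and 8.81% by the exact interval used for the other mice, and 39 of them had no read of any of the 8 genes. The other virgin mice had 22.9% (vBrL, 8 cells, exact Clopper-Pearson 95% interval 10.4 to 40.1) and 25.6% (vBr53L, 10 cells, 13.04 to 42.1). The pregnant mice had 16.7% (p53L, 6 cells, 6.37 to 32.8), 22.5% (pBrL-1, 16 cells, 13.5 to 34), 41.5% (pBr53L, 22 cells, 28.1 to 55.9) and 55.3% (pBrL-2, 21 cells, 38.3 to 71.4). The stages overlapped, with p53L below vBrL and vBr53L and pBrL-1 close to them. The place of pBrL-1 depends on the call: with at least 2 of 8 genes its share was 40.8%, above vBrL (25.7%) and vBr53L (28.2%), and without thinning 45.1%, again above both (28.6% and 38.5%), while p53L lay below vBr53L in both cases. In the tumors the share was 23.3% (Br53T1, 7 cells, 9.93 to 42.3), 24.3% (BrT2, 9 cells, 11.8 to 41.2), 39.2% (Br53T2, 20 cells, 25.8 to 53.9) and 72.3% (BrT1, 34 cells, 57.4 to 84.4). Only BrT1 lay above every luminal mouse, and its interval overlapped that of pBrL-2. The intervals of the 2 pregnant Br mice did not overlap at this threshold, but they did with at least 2 of 8 genes (29.3 to 53.2% in pBrL-1 and 38.3 to 71.4% in pBrL-2), without thinning, with the second set and with at least 6 of 8 genes. Reads carry no molecular identifiers, so these intervals and the limit at 0 cover counting error only.

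**Figure D2:**
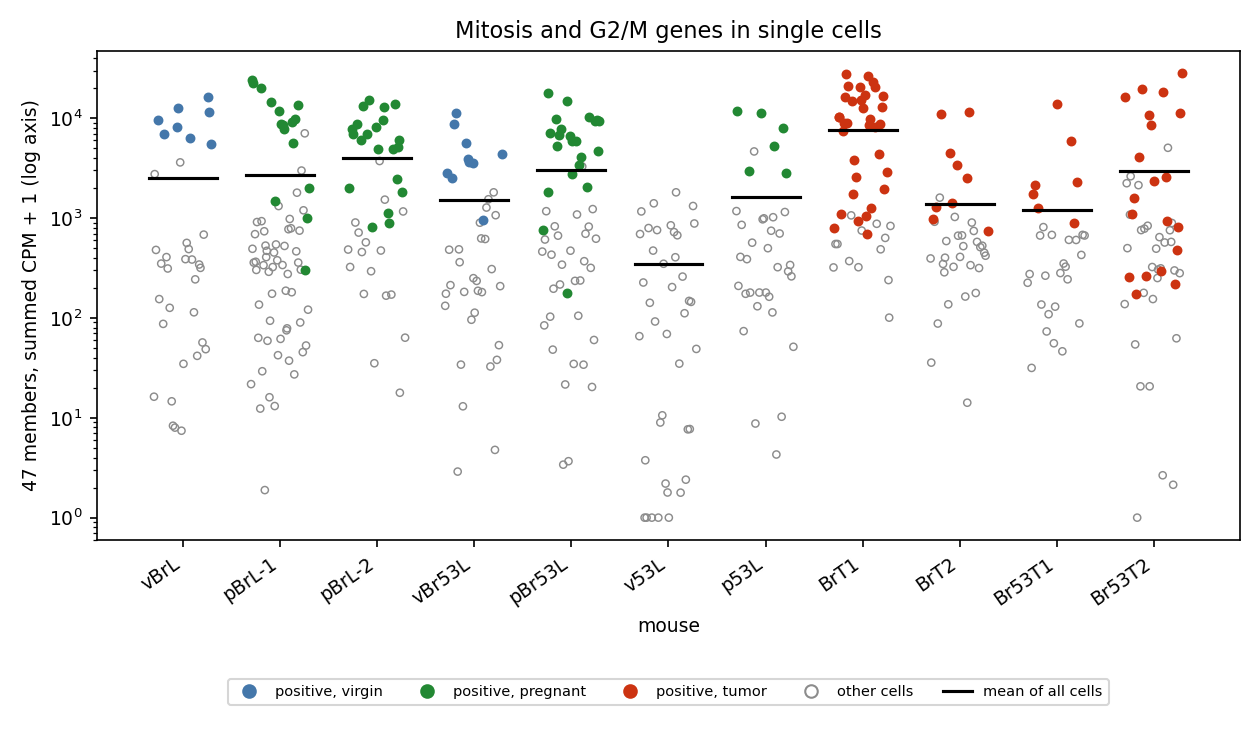
Each point is a cell, placed by mouse (x axis) and by the summed CPM + 1 of the 47 genes (y axis, log); filled points are positive cells, open points other cells and the black line the mean of all cells. Positive cells form the upper cloud in 10 mice, and v53L holds open points only, none above 1808 CPM.

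Positive cells carried most of this RNA. In the 10 mice that had them, they held 67.1% to 97.3% of the summed CPM of the 39 measured genes. Their level was 6.60 to 16.05 times that of the other cells of the same mouse. Of the 39 measured genes, 30 were at least 10 times higher in positive cells (median 22.5-fold over genes; means of 10 mice against 11), and 30 were higher in positive cells in 10 of 10 mice. *Kif2c*, which depolymerizes microtubules (203-fold), *Bub1* (199-fold), *Ccnb1* (179.8-fold) and *Hmmr*, a spindle protein (119.6-fold), differed most. *Kif2c* averaged 43.6 CPM in positive and 0.215 in other cells. The calling genes, such as *Nusap1*, are high in positive cells by construction and are not counted here.

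In contrast, 5 measured genes differed by less than 5-fold: *Bub3* (2.37-fold), *Mad2l1*, its partner in the checkpoint (3.45-fold), *Cks2*, a Cdk1 subunit (3.46-fold), and the condensin genes *Ncapd2* (3.84-fold) and *Smc4* (4.49-fold). *Bub3* had a read in 46.8% and *Smc4* in 52.6% of other cells after thinning (means of 11 mice), and in 27.5% and 30% of the v53L cells, none of which was positive. By comparison, *Cdk1* had a read in no v53L cell. *Mad2l1* had a read in 14.3% of other cells, and its mean level in them rested mostly on Br53T2. There it was 260 CPM, against 89.7 in positive cells, and in the remaining mice other cells held 1.97 to 62.9 CPM. The other cells were not empty either: their summed level of the 39 genes ran from 306 CPM in Br53T1 to 659 in Br53T2, with v53L at 345. Positive cells also had more detected genes than other cells of the same mouse at equal depth, for instance a median of 4832 against 3094 in pBrL-2, and least so in BrT1 (4461.5 against 4348). The part of this difference in the levels was not tested.

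**Figure D3:**
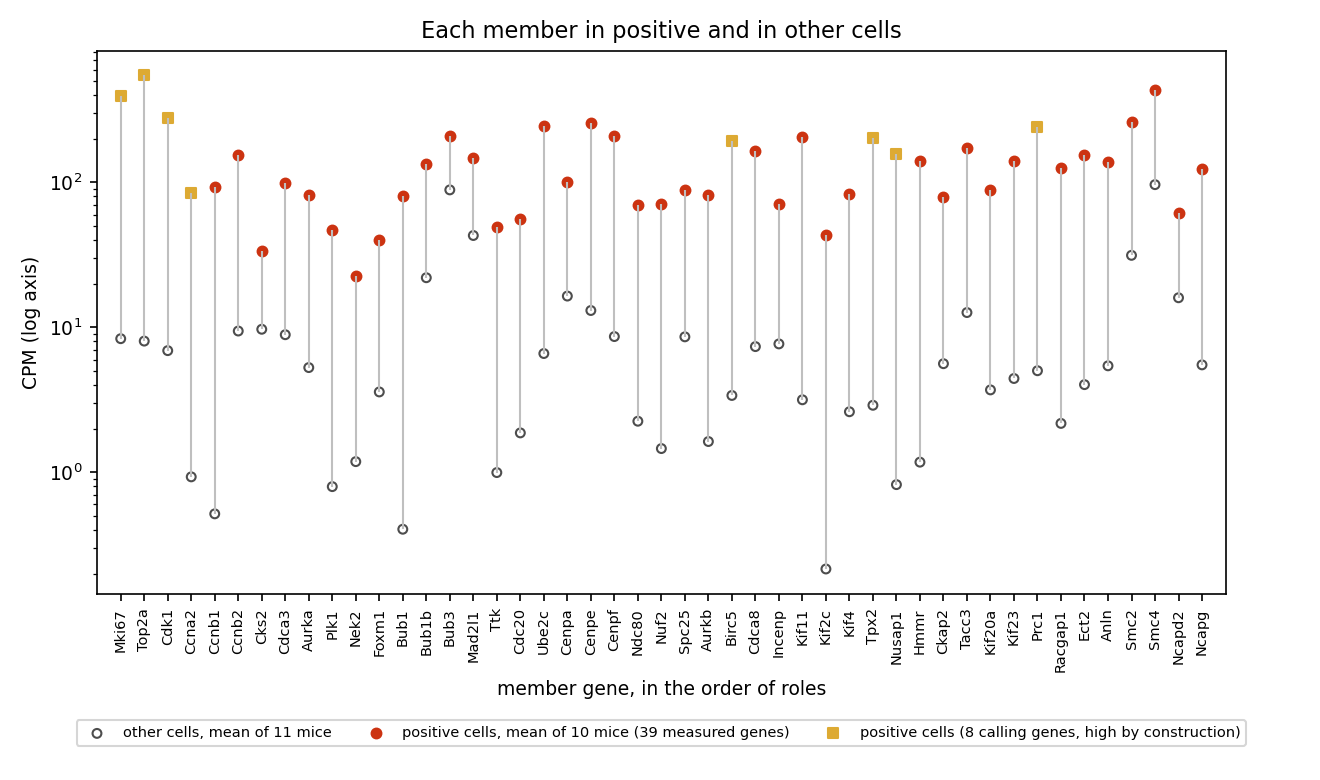
For each of the 47 genes (x axis) the mean CPM (y axis, log) in positive cells (filled, 10 mice) and in other cells (open, 11 mice) is joined by a line; squares are the 8 genes used to call cells. Lines are shortest for *Bub3*, *Mad2l1*, *Cks2*, *Ncapd2* and *Smc4*, and longest for genes such as *Kif2c* and *Bub1*.

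With cells called by at least 3 of 8 genes, the level in positive cells varied less between mice than their share. The mean summed CPM of the 39 measured genes per positive cell was 6674 ± 2924 (SD over 8 cells) in vBrL and 3201 ± 2399 (10 cells) in vBr53L. In pregnancy it was 7031 ± 5273 (16) in pBrL-1, 4754 ± 3249 (21) in pBrL-2, 4751 ± 3171 (22) in pBr53L and 4931 ± 2827 (6) in p53L. The tumors gave 6750.1 ± 5287 (34) (BrT1), 3239 ± 3112 (9) (BrT2), 2937 ± 3344 (7) (Br53T1) and 4351.5 ± 5285 (20) (Br53T2). The positive cells of BrT1, the tumor with the largest share, thus held about as much as those of vBrL and pBrL-1, mice with 22.9% and 22.5% of their cells positive. Between the 10 mice the share differed 4.34-fold and the level 2.39-fold. This order depended on the call: with at least 2 of 8 genes the share differed 3.14-fold and the level 3.51-fold, without thinning 3.74-fold and 3.46-fold, and with the second set 6.82-fold and 3.01-fold. Within a mouse the spread over positive cells was wide, from 438 to 19483 CPM in BrT1.

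Group means overlapped on both counts. The share of positive cells was 39.8 ± 22.9% (SD, n = 4 mice) in tumors and 26.4 ± 17.7% (n = 7) in luminal mice, 33.99 ± 17.7% (n = 4) in pregnant and 16.2 ± 14.1% (n = 3) in virgin mice. Without BrT1 tumors and luminal mice differed by 2.60 percentage points, and without v53L pregnant and virgin mice by 9.74. The level was 4319 ± 1731 CPM (n = 4) in tumors against 5224 ± 1414 (n = 6) in luminal mice, and 5367 ± 1113 (n = 4) in pregnant against 4937 ± 2456 (n = 2) in virgin mice. The order of tumor and luminal levels depends on the threshold: with at least 6 of 8 genes it was 7528 ± 1969 against 6452 ± 1709.7 CPM, tumors now higher, with shares of 20.1 ± 16.9% and 18.8 ± 12.3%.

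The parts of share and level were then set side by side. Giving each mouse its own share and the mean levels left an SD over mice of 0.77 on the log2 scale, and giving it its own levels and the mean share left 0.39, against 1.01 as measured. Without v53L, the mouse with no positive cell, the values were 0.51 and 0.42, against 0.75 measured, and so close to each other.

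Between pairs of mice the answer differed. BrT1 exceeded BrT2 by 3886 CPM per cell in the measured genes, of which 55.9% went with the share of positive cells and 43.7% with their level. Br53T2 exceeded Br53T1 by 1188 CPM, 42.3% with the share, 37.2% with the level and 20.5% with the level in other cells. These splits depend on how cells are called. Over the alternatives the part of the share ran from 23.8% (without thinning) to 78.3% (second set) between BrT1 and BrT2, and from -1.55% (second set) to 42.3% (as called here) between Br53T2 and Br53T1, so that neither pair gives a fixed order of share and level. On chip SC7, pBr53L exceeded vBr53L by 1130.3 CPM, 50.1% with the share and 46.05% with the level, where the part of the share ran from 32.9% to 90.4% over the alternatives. On chip SC9, p53L exceeded v53L by 879.6 CPM, of which 85.6% went with the share, a split fixed by the lack of positive cells in v53L. As called here, the Br mice showed no common change with pregnancy. pBrL-1 and vBrL differed by only 129 CPM, whereas pBrL-2 exceeded vBrL by 1069 CPM, with a larger share (part of 1680 CPM) and a lower level per positive cell (-749.9 CPM). With at least 2 of 8 genes, both pregnant Br mice had a larger share and a lower level than vBrL. The parts were 748 and -619 CPM for pBrL-1 and 1475 and -590 for pBrL-2. Without thinning they were 684 and -586, and 1706 and -791. With the other calls the part of the share was below 0 for pBrL-1. Between the 2 pregnant Br mice, pBrL-2 had the larger share (1740.5 CPM) and the lower level (-886 CPM). There the part of the level was 193 CPM with at least 2 of 8 genes and 1.40 without thinning.

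**Figure D4:**
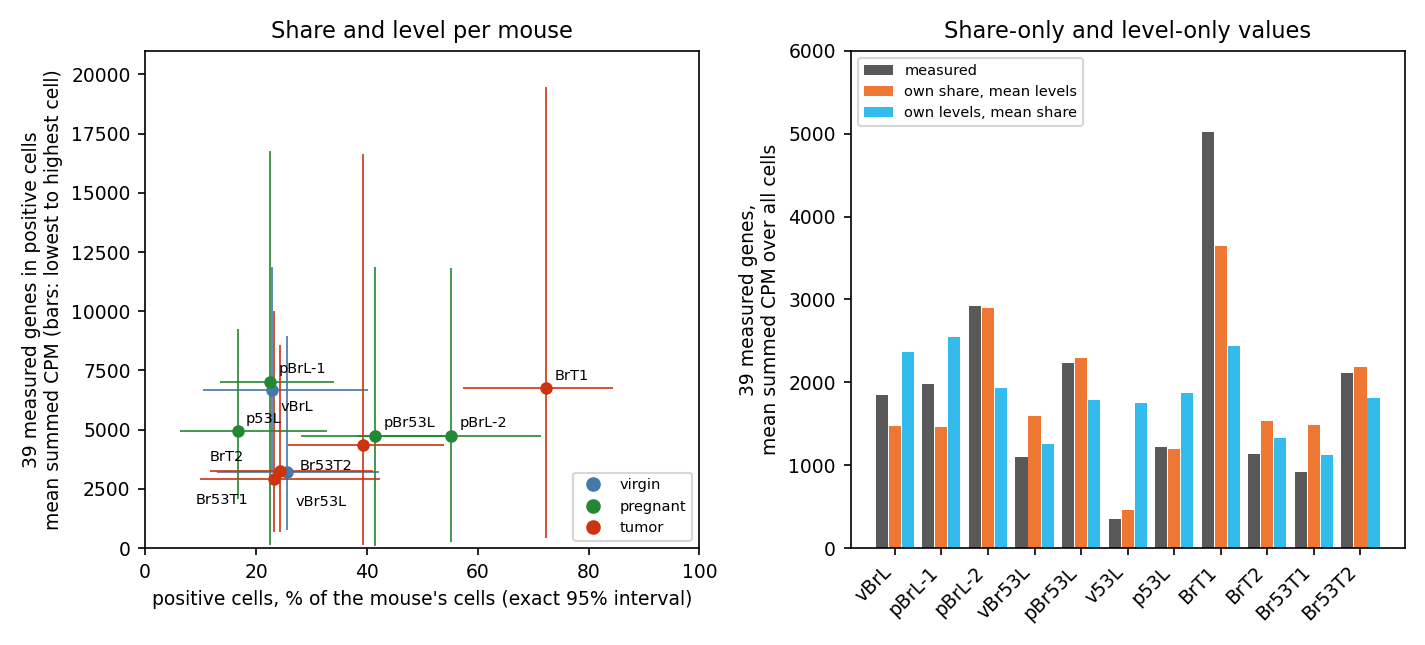
Left, the share of positive cells (x axis, exact 95% interval) against the mean summed CPM of the 39 measured genes in them (y axis, bars from the lowest to the highest cell) for the 10 mice with positive cells. Right, for 11 mice, the mean over all cells as measured, with the own share and mean levels, and with the own levels and mean share; the bars with the own share are highest in BrT1 and lowest in v53L.

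Gene by gene, the 2 parts were about balanced. For each member the SD over mice of the log2 share of cells with a read was compared with that of the log2 mean CPM in those cells. The share varied more for 20 genes and the level more for 27, and with mice of at least 5 such cells 24 and 23. *Anln*, *Bub1* and *Kif23*, a motor of the central spindle, varied mostly in level (SD 1.20, 1.31 and 1.20 against 0.75, 0.85 and 0.53 for the share). *Cenpa*, the centromeric histone, and *Racgap1*, a regulator of cytokinesis, varied mostly in share (SD 0.94 and 0.80 against 0.40 and 0.39 for the level). In positive cells *Anln* was 622 CPM in BrT1, 195 in BrT2 and 165 in Br53T2, but 26.9 in Br53T1, against 22.97 to 137 in the luminal mice. These 5 genes were chosen after their values were seen.

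Positive cells of different mice also differed in which members they held. Early members (*Ccna2*, *Top2a*, *Cdk1*, *Smc2*, *Smc4*) were set against 10 late ones (*Ccnb1*, *Ccnb2*, *Cdc20*, *Plk1*, *Aurka*, *Cenpa*, *Cenpe*, *Kif20a*, *Nek2*, *Hmmr*). The ratio of late to early summed CPM in positive cells was 0.514 in vBrL and 0.236 in vBr53L. It was 1.02 in pBrL-1, 0.774 in pBrL-2, 0.893 in pBr53L and 0.573 in p53L. The 4 pregnant mice thus lay above the 2 virgin mice that had positive cells, without overlap. The tumors overlapped both stages, with 0.604 (BrT1), 0.479 (BrT2), 0.903 (Br53T1) and 0.708 (Br53T2). Part of the ratio rests on genes that also served to call cells (*Ccna2*, *Top2a*, *Cdk1*).

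The lowest ratio, in vBr53L, came with low values of the late members, all 10 of which were lower than in pBr53L, captured on the same chip. Its 10 positive cells held 0.303 CPM of *Ccnb1*, 0 of *Aurka* and 1.44 of *Plk1*, against 86.6, 41.7 and 33.2 in pBr53L, while *Ccnb2* was 117 against 144. Over all 47 members 35 were lower and 12 higher than in pBr53L, among the latter *Tacc3* (341 against 151 CPM) and *Kif2c* (76.4 against 49.7), both the highest of all mice. At the same time they held 6112 CPM of 28 genes of DNA replication, such as the MCM helicase, the highest of all mice, whose values ran from 2509 to 4184 in the other 9. By a matching call on 8 replication genes, 48 cells were positive on the mitotic set alone and 49 on the replication set alone. In vBr53L 9 of its 10 positive cells were positive on both.

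**Figure D5:**
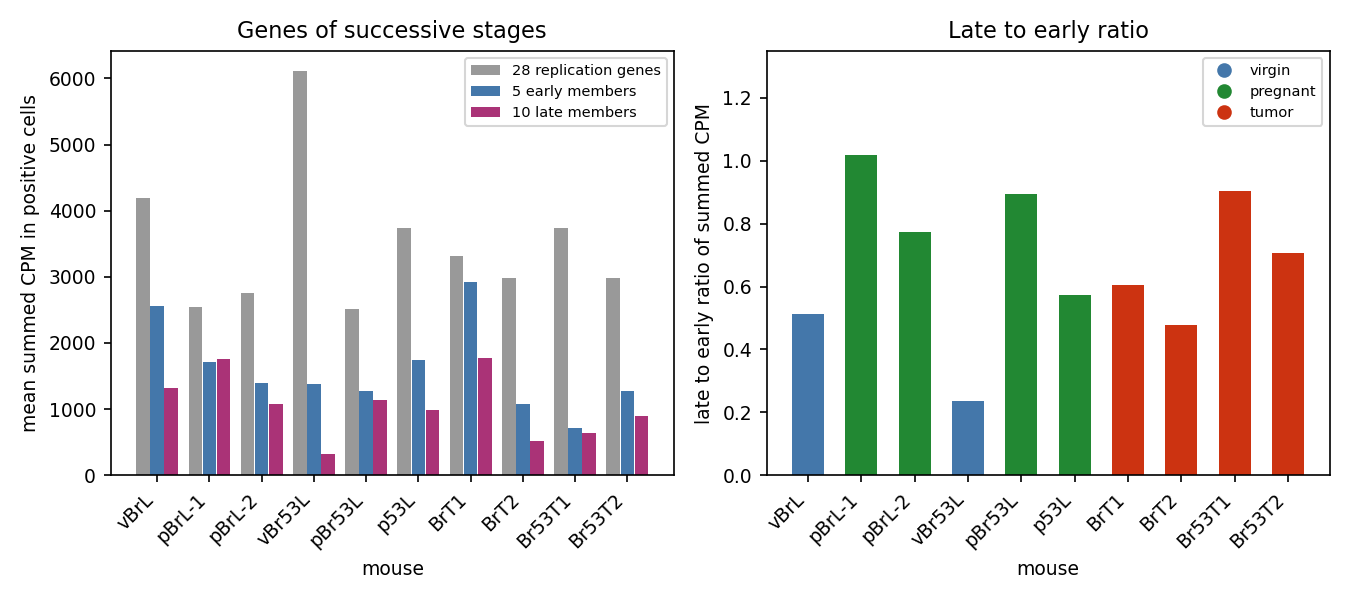
Left, mean summed CPM (y axis) of 28 replication genes, 5 early members and 10 late members in the positive cells of the 10 mice that had them. Right, the late to early ratio; both virgin mice lie below all 4 pregnant mice, vBr53L lowest at 0.236.

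Single genes were then tested with the mouse as the replicate, with edgeR's quasi-likelihood test over all genes that passed its low-count filter, Benjamini-Hochberg adjusted over all of them. All 47 members passed the filter in each of the 4 comparisons. No member was called at an adjusted p under 0.05 in any of them. The 2 luminal comparisons were fitted on the same 7 mice, and the tumor comparison shares 5 of these.

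Tumors were set against *Brca1*-deficient luminal mice (4 against 5), the contrast between the tumors and the tissue they arise from. Fold changes lay on both sides of 0: 23 of 47 had a fold change above 0, against 52.6% of all genes, and their median was -0.01 on the log2 scale, against 0.06 for all genes. None was called, against 0.609% of 12978 genes. An unadjusted p under 0.05 was seen for 1 member, against 13.8% of genes. That gene was *Anln*, with a log2 fold change of 2.72 ± 0.85 (SE; adjusted p = 0.186), and DESeq2, unlike edgeR, called it (adjusted p = 0.0211), alone of the members, against 6.23% of all genes. It averaged 146 CPM in tumors and 19.6 in these luminal mice, but Br53T1 (17.5 CPM) lay within the luminal range. The next by size had negative fold changes, -2.001 ± 0.93 for *Ttk*, -1.06 ± 1.04 for *Ncapg*, a condensin subunit, -1.04 ± 0.77 for *Cdca3* and -0.91 ± 1.07 for *Nek2*, and none passed (adjusted p 0.373 to 0.760). *Ncapg* was 100.5 CPM in BrT1 but 0.381, 7.18 and 16.3 in BrT2, Br53T1 and Br53T2, against 36.9 (vBrL), 40.4 (pBrL-1), 104.97 (pBrL-2), 57.8 (vBr53L) and 44.3 (pBr53L), and 0.0496 and 67.5 in v53L and p53L. *Cdca3*, a trigger of mitotic entry, was 81.2, 7.55, 7.69 and 20.6 CPM in the tumors, in the same order, against 28.3 (vBrL), 81.2 (pBrL-1), 91.3 (pBrL-2), 16.7 (vBr53L) and 49.6 (pBr53L), and 0 and 32.8 in v53L and p53L. No member separated the 2 groups without overlap, against 7.52% of all genes in either direction. BrT1 decided the balance: without it 4 of 47 members were above 0, with a median of -1.05 (0.02 for all genes), and *Anln* stood at 1.13. In that fit 10 members had an unadjusted p under 0.05, against 13.6% of genes, and none was called, against 0.372%. On chip SC6, the only one with both tissues, the tumor Br53T2 held -808 CPM per cell of the measured genes relative to pBrL-2, of which 77.5% went with a smaller share of positive cells (1.44% without thinning and 212% with at least 3 reads, there against a higher level). BrT1 is also the tumor with few luminal and many fibroblast marker reads, and its positive cells held as many fibroblast marker reads (4735 CPM) as its other cells (4976).

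In pregnant against virgin luminal mice (4 against 3, with genotype in the model), 45 of 47 members had a fold change above 0, against 55.9% of all genes. The median was 1.73 on the log2 scale, against 0.14 for all genes. None was called, against 0.0146% of 13709 genes; 12 had an unadjusted p under 0.05, against 8.99%. The 5 largest log2 fold changes (± SE) were those of *Aurka*, 6.96 ± 1.43 (adjusted p = 0.204), *Ccnb1*, 4.74 ± 1.73 (0.502), *Nek2*, 4.53 ± 1.56 (0.483), *Plk1*, 3.98 ± 2.02 (0.612), and *Bub1*, 3.92 ± 1.02 (0.324). Without overlap, 9 members were higher in every pregnant than in every virgin mouse, against 6.11% of genes: *Aurka*, *Plk1*, *Nek2*, *Bub1*, *Bub1b*, *Ube2c*, *Cdca3*, *Nusap1* and *Anln*. None was lower in this way. Late members had a median of 2.95 and all 10 were above 0, early members 1.37 (4 of 5), and the difference between these lists was not tested. *Ttk* and *Smc2* alone were below 0. Markers of other cells moved with the stage too. The 6 fibroblast markers summed to 712 (vBrL), 579 (vBr53L) and 176 CPM (v53L), and during pregnancy to no more than 25.4 (pBrL-1), with 0.117 (pBrL-2) the lowest. *Dcn* made nearly all of it and was the 1 of 6 to separate the stages, with *Lum* at 0 reads in every mouse. Red cell markers did not overlap either, at most 3.21 CPM summed in a pregnant mouse (p53L) and at least 16.3 in a virgin one (v53L). The 6 basal markers went the other way without overlap, like the members. They summed to at most 69.5 CPM in a virgin mouse (vBr53L) and at least 88.5 in a pregnant one (p53L). Their median log2 fold change was 5.93 (6 of 6 above 0, 0 called), and *Krt14* was the 1 of 6 to separate the stages. The part of these marker lists in the result was not tested.

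DESeq2 called 10 members higher in pregnancy, against 7.62% of all genes, among them *Aurka*, *Bub1*, *Nek2* and *Ccnb1*, and edgeR without the low-count filter also called 10, against 1.99% of the genes then tested. 6 of these were called by both (*Bub1b*, *Nusap1*, *Bub1*, *Ube2c*, *Aurka* and *Ccnb1*), so that the calls rest on the tool and on the filter. The virgin mouse v53L weighs on the size: without it the median was 0.92 and 40 of 47 were above 0, and likewise 0.92 and 40 without p53L, since the other 53 mouse then adds nothing to the contrast. Without vBrL the median was 4.06. Within chips SC7 and SC9, which held 1 virgin and 1 pregnant mouse each, it was 4.22, with 46 of 47 above 0 and none called. Caseins, the milk proteins, stood at a median log2 fold change of 2.22 (5 of 5 above 0, none called), and removing their reads left the members' median at 1.74.

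Between Br53 and Br tumors (2 against 2) no member passed. Of 47 members 42 had a fold change below 0, against 50.1% of all genes, with a median of -1.25 against 0.00. None was called and none had an unadjusted p under 0.05, against 0% and 3.98% of 13477 genes, and DESeq2 called none, against 2.34%. The largest log2 fold changes (± SE) were those of *Cdc20* (-2.80 ± 1.25), *Anln* (-2.42 ± 1.22), *Top2a* (-2.25 ± 1.62), *Ncapg* (-2.09 ± 1.97) and *Nuf2* (-2.07 ± 1.18), all with an adjusted p of 0.9999. Both Br53 tumors lay below both Br tumors in 4 of 47 members (*Cdc20*, *Ect2*, *Kif20a* and *Smc4*), a lower share than the 12.9% of all genes. Without BrT1, 38 of 47 members were above 0, with a median of 1.12 (0.33 for all genes), so the direction was that of 1 tumor. The median was -1.99 without BrT2, -0.71 without Br53T1 and -2.30 without Br53T2.

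*Brca1*-deficient and *Brca1* wild type luminal mice (5 against 2, with stage in the model) compare all Br and Br53 mice with v53L and p53L, which carry *Trp53* fl/+ alone. All 47 members had a fold change above 0, against 55.8% of all genes, and the median was 2.17 against 0.13. None was called, as for all genes (0% of 13709), and 11 had an unadjusted p under 0.05, against 5.97%. The largest log2 fold changes (± SE) were those of *Ndc80*, 6.25 ± 0.99 (adjusted p = 0.430), *Ccnb1*, 5.21 ± 2.06, *Kif2c*, 4.36 ± 1.78, *Nuf2*, 3.95 ± 1.75, and *Cdc20*, 3.89 ± 1.66 (the last 4 with an adjusted p of 0.778). *Kif2c* was 0 CPM in v53L and 2.53 in p53L, against 14.9 to 25.6 in the others, and 42.6, 0.381, 2.57 and 13.1 in BrT1, BrT2, Br53T1 and Br53T2. In 18 members the 5 *Brca1*-deficient mice all lay above both others, against 8.21% of genes, *Mki67*, *Top2a*, *Cdk1*, *Foxm1*, *Bub3* and *Ndc80* among them. DESeq2 called 7, against 3.78%.

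These values rest on v53L, in which no cell was positive. Without it the median fell to 0.96, with 42 of 47 above 0 and none called. Without p53L, 22 members were called, against 0.822% of genes, but that arm is then v53L alone, which is assumed to vary like the *Brca1*-deficient mice, so these calls speak of 1 mouse and not of the genotype. Among the 5 largest, *Ndc80*, which was near 0 in p53L as well, kept a log2 fold change of 5.89 without v53L, while *Kif2c* stood at 2.84, *Nuf2* at 2.41, *Cdc20* at 2.43 and *Ccnb1* at 3.93. The share of positive cells was 0% and 16.7% in v53L and p53L against 22.5% to 55.3% in the 5 others, and both 53 mice were captured on chip SC9, which held no *Brca1*-deficient mouse, so chip and genotype cannot be told apart. v53L also had the fewest reads per mouse and the fewest detected genes per cell (median 3672.5), whose part in the result was not tested.

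Other genes of the cycle were listed by function. Of 28 replication genes, 20 were above 0 in pregnant against virgin mice, with a median of 0.39 (0 called), 24 in *Brca1*-deficient against wild type luminal mice, with 1.32 (0 called), and 10 in tumors against luminal mice, with -0.18 (0 called). Of 50 further mitosis genes 47 were tested, with 44 above 0 and a median of 1.43 in pregnancy, 45 and 2.21 in the *Brca1* comparison, and 18 and -0.33 in tumors, none called in either direction. Regulators of the members in the DREAM complex and its relatives summed to 526 CPM in v53L, within the range of the remaining luminal mice (330 in p53L, 691 in vBrL). In v53L most of this was *Rb1*, the retinoblastoma protein (186 CPM), and *Rbbp4*, a MuvB subunit (168), whereas *E2f1*, *E2f2* and *E2f8* had no read and *E2f7* (0.0248) and *Mybl2*, B-Myb (0.0496), were near 0. *Mybl2* was also low in vBr53L (0.118), pBrL-2 (0.104) and pBrL-1 (0.294). G1 cyclins and CDK inhibitors summed to 569 CPM in v53L and to 736 to 1145 in the other luminal mice. For comparison, the members summed to 332 CPM in v53L and to 1603 to 4154 in the other luminal mice.

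Across the cells of a mouse, members varied together to different degrees. The Spearman correlation of a gene's CPM with the summed CPM of the other members, taken within each of the 10 mice with positive cells and summarised by its median, was highest for *Cdca8* (0.67), borealin of the passenger complex, *Cenpe* (0.65) and *Prc1* (0.64), and lowest for *Bub3* (0.35), *Ncapd2* (0.36) and *Cks2* (0.37). Of 9546 genes outside the list with a read in at least 10% of cells, those most like the members were *Pclaf* (0.66), *Stmn1* (0.65), *Pbk* (0.64), *Ckap2l* (0.61), *Cit* (0.59), *Rrm1* (0.59), *Diaph3* (0.58), *Spc24* (0.57), *Knl1* (0.57) and *Cenpw* (0.57). Cells of a mouse share the library preparation and differ in depth and detected genes, so these values describe likeness only.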

How the data were processed

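Single-cell RNA was read out by C1 capture, SMARTer amplification and Nextera XT libraries. The deposited table holds raw read counts per gene and cell, which the authors made with Trim Galore 0.4.1, sickle, STAR 2.5.3a on mm10 and featureCounts of Subread 1.5.3, per the labels. The annotation and the use of strand are not given in the sources used here, and reads carry no molecular identifiers, so amplification copies are counted. All 477 cells were kept, doublets having been looked for by microscope at capture, and the chips take cells of a limited range of sizes. Cells were grouped by the labels' group and mouse, and the mouse is the replicate, so p-values measure the spread between mice of which each genotype and stage mostly holds 1.

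Counts were summed per mouse and scaled to CPM, a share of the 40338926 to 115827852 reads of a mouse and not an amount per cell. Tests used edgeR 4.0.16 (filterByExpr, TMM, quasi-likelihood, R 4.3.3) over all genes, with Benjamini-Hochberg adjustment and a threshold of 0.05. Genotype was a covariate of the stage comparison, and stage of the *Brca1* comparison. Alternatives were RLE factors, library size alone, DESeq2 1.42.0, no filter, limma 3.58.1 on mean CPM over cells (pseudocount 1), caseins removed, cells with at least 2000 genes (476 of 477), 30 cells per mouse, all 7 luminal mice, a chip block, no covariate and leaving out each mouse. Cell calls used Python 3.11.15 and numpy 2.4.6 on cells thinned to 100000 reads, with other thresholds and gene sets as alternatives, of which at least 6 of 8 genes was chosen after seeing the data. Parts of a difference between mice were computed with the mean of both mice for the quantity held fixed.

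The members and gene lists were chosen with earlier results of these data known. By rule, values by mouse (in groups of over 5 mice, the lowest, the median or the range) are given for *Mki67*, *Top2a*, *Cdk1*, *Ccnb1*, *Foxm1*, the member with the highest mean CPM in each role and, per comparison, the 5 with the largest fold change, and of other genes the 10 most like the members are named. No sample column was left unused.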

Additional observations from a re-analysis of the deposited data

Results flagged for a closer look

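Among 112 sets of values by group looked at, 9 had 1 mouse far from the others by Dixon's criterion, which by chance marks about 1 in 20 groups. The values of one mouse are not independent of each other, and 6 of the 9 were in BrT1. In the tumors, BrT1 lay far above the next tumor in *Top2a* (1109 CPM against 209), *Birc5* (204 against 39.4), *Anln* (447 against 74.8), *Ncapg* (100.5 against 16.3), *Cdc20* (86.8 against 10.6) and *Nuf2* (94.2 against 15.1). BrT1 is also the tumor with 512 CPM of luminal and 4955 CPM of fibroblast markers, whose part in these levels was not tested. Among the luminal mice, v53L lay far below the others in *Mki67* (0.0248 CPM against 111 in the next mouse). Among the pregnant mice, pBrL-1 lay above the others in the level of the 39 measured genes in positive cells (7031 CPM against 4931), and pBrL-2 in *Ttk* (43.4 CPM against 13.6). The place of pBrL-1 depended on the call. With at least 2 of 8 genes its level was 4352 CPM, below pBrL-2 (4754), and without thinning 3801 against 3804. It stayed the highest pregnant mouse with the other calls. The positive cells of pBrL-1 also held 1387 CPM of basal markers, against 72.6 in its other cells and at most 153 in positive cells of the other luminal mice, and 108.8 against 0.0149 CPM of fibroblast markers, whose part in the level was not tested.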

How the results depend on the processing

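No paired analysis was possible because replicate numbers in the labels only name cells or mice and pair none across groups, and chips alone could serve as a block, over the 4 mice of SC7 and SC9 (0 members called, median 4.22). No member was called under any alternative tried between Br53 and Br tumors. DESeq2 called 1 member in tumors (edgeR 0), 10 in pregnancy and 7 in the *Brca1* comparison, and edgeR without a filter on low counts called 10 and 1 in the last 2. Leaving out 1 mouse gave 0 to 22 members called for *Brca1*, 22 without p53L, and 0 in the other comparisons. Scaling by library size alone moved the median log2 fold change of all genes in tumors from 0.06 to 0.20, with 28 of 47 members above 0 (23 as reported), against 12 with 30 cells drawn per mouse (median of the members -0.39), 16 with limma on mean CPM (-0.13) and 32 with all 7 luminal mice (0.20). The level in positive cells, tumors minus luminal mice (-0.31 on the log2 scale), changed sign to 0.094 with at least 4 of 8 genes, 0.17 with the second calling set, 0.18 with at least 3 reads and 0.23 with at least 6 of 8 genes. Between pregnant and virgin mice it was 0.19, -0.11 with at least 2 of 8 genes, and -0.34 (without vBr53L) to 0.72 when 1 mouse was left out. The summed CPM, tumors minus luminal mice, ran from -0.30 to 0.73, and the SD of the share-only values from 0.51 (without v53L) to 0.83. The share, tumors minus luminal mice, was 13.5 percentage points, 0.793 with at least 3 reads and 30.2 without thinning, where deeper cells are called more often. Without BrT1, *Top2a* (-4.26 to 1.75), *Ncapg* (-3.09 to 4.77) and *Nuf2* (-2.91 to 0.10) changed sign between Br53 and Br tumors. Where leaving out a mouse left 1 in an arm, it was assumed to vary like the others. The causes were not tested. Low genes such as *Nek2* rest on few cells.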
